A study of Mus musculus with 6 samples.

Results

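Mouse peritoneal exudate cells without the transcription factor NF-IL6 were followed from the untreated state to stimulation with lipopolysaccharide (LPS) and interferon-γ. NF-IL6 is C/EBPβ, the product of Cebpb. The comparison sets the stimulated array of NF-IL6 knockout (KO) cells against their untreated array over every probe set of the chip other than Affymetrix controls, 12422 of 12488, with 2 of the 6 arrays of the series. Of these probe sets, 9344 lay above a signal floor on at least 1 of the 6 arrays, and they represent 6767 named genes. No gene was chosen by its KO response, although the floor uses the signals of all arrays, and with 1 array a side the responses are sizes without a replicate error.

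The KO cells were compared with wild-type cells (WT) and with cells of a knock-in line labelled KI(LAP) (KI), where LAP is the name of the activating form of C/EBPβ. Each genotype was measured untreated and after LPS with interferon-γ. Stimulation lasted 12 h in KO and KI cells per the labels, which give WT cells no time. They give the strain C57BL/6 for all samples and no age, and do not say how many mice an array stands for, or how the knockout and the knock-in were made. The cells carry the names peritoneal exudate cells and peritoneal macrophages in turn. The labels number no replicates and each group has 1 array.

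As background, LPS is sensed by Toll-like receptor 4 and acts through MyD88 and TRIF to activate NF-κB, AP-1 and IRF3, the last of which starts interferon-β production. Interferon-γ acts through its own receptor and JAK kinases on genes with GAS elements, and interferon-β acts through ISGF3, which binds interferon-stimulated response elements (ISRE). Macrophages given both signals are called classically activated: they make nitric oxide, inflammatory cytokines and chemokines and present antigen. C/EBPβ is itself induced by LPS and is known as a regulator of Il6, Csf3, Ptges, Arg1 and acute-phase genes.

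Signals are linear intensities brought to 1 scale, and a log2 response is the log2 of stimulated over untreated signal with both raised to a floor of 98.0. Where 1 of the 2 signals was under the floor, the fold is a lower bound and is written "at least". "Rose" and "fell" mean a change of at least 2-fold, 1 on the log2 scale, and no test stands behind these words. On the untreated KO array 61.2% of probe sets lay above the floor and on the stimulated one 59.0%, with median deposited signals of 172.2 and 151.2. The 3′ to 5′ signal ratio, which rises as RNA breaks down, went from 0.953 to 0.866 for Gapdh, from 1.13 to 1.01 for Actb and from 3.20 to 1.38 for Tfrc. The last ratio was also higher on the untreated array of WT and KI, and its part in the results was not tested. Cebpb, the deleted gene, gave 12.7 and 59.0 on the KO arrays, both under the floor.

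The labelled cell type was checked against marker lists, which, like the gene lists below, were chosen with earlier results of these data known. All 10 macrophage markers were above the floor on the untreated KO array and 9 on the stimulated one, and their summed signal went from 58970 to 40439. Cd68, a lysosomal glycoprotein of macrophages, stood at 15208 to 9609, and Adgre1, the F4/80 antigen, rose from 3056 to 6125. Of 11 B cell markers on the chip, 9 were above the floor before and 8 after stimulation, with a summed signal of 10147 and 6317. Ighm, the heavy chain of IgM, read 2633 to 1147 and Cd79a, part of the B cell receptor, 1129.5 to 644, and both lay above the floor on both KO arrays. The part of other cell types in the results was not tested. Dendritic cell markers summed to 7922 untreated and 20587 stimulated, with rises in Irf8, Cd83, Fscn1 and Ccr7 and falls in Flt3 and Cd24a. Another probe set of Flt3 read 397.8 to 347.2, a log2 response of -0.20. T cell, NK cell, mast cell, neutrophil, eosinophil, endothelial, erythroid, platelet and monocyte lists and the list of mesothelial and fibroblast markers summed to at most 10528 on either KO array, the highest being the 4 monocyte markers, at 6105 after stimulation. Of 12 T cell markers on the chip, 4 were above the floor on the untreated KO array and 2 on the stimulated one. Cd4 read 229 to 334 and Zap70 174 to 176, whereas Cd3d, the T cell receptor subunit, was at 0.4 and 1.5. In such mixed RNA, fewer cells of a type and less RNA per cell cannot be told apart.

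Stimulation lowered more genes of the KO cells than it raised. Among 9344 probe sets, 611 rose (6.54%) and 905 fell (9.69%), and among 6767 genes, 456 rose (6.74%) and 703 fell (10.4%). The counts of the gene lists below stand against these shares of all genes. On the log2 scale 67 genes rose by at least 3 and 117 fell by at least 2. The median log2 response of all genes was -0.08. Of the genes, 5160 were above the floor on both KO arrays, 363 on the stimulated array alone and 572 on the untreated array alone, and 672 stayed under it on both. At the threshold for rises, Pvr lay just inside (1.0015) and Polr2g just outside (0.9992), with 59 genes within 0.1 outside it and 52 within 0.1 inside. For falls, Pbx3 (-1.0002) and Gdnf (-0.9988) were the nearest, with 145 genes just outside and 102 just inside.

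The balance of rises and falls depended on the scaling. With each array centred on its median, the split became 781 probe sets higher and 674 lower, because probe sets above the floor on both KO arrays then had a median log2 response of 0.03 in place of -0.16. All 456 genes that rose still did so by at least 2-fold under that centring, against 530 of the 703 that fell. The counts of falling genes of the proliferation list (17), the pattern-recognition and scavenger receptors (7), the resident macrophage list (10) and the lipid list (12) were the same with that centring. Several other lists had fewer falls with it. Falls went from 6 to 4 in the lysosome list and from 4 to 2 in the translation factors and the cytokine receptors. In the list of G1 cyclins and CDK inhibitors they went from 3 to 0. How far 2 readings of 1 gene could differ was measured on 787 genes with at least 2 probe sets above the floor on both KO arrays. The pooled SD of the log2 KO response between probe sets of 1 gene was 0.506, and 15% of these genes had a range of at least 1. This spread covers probe design, not animals or cultures.

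**Figure D1:**
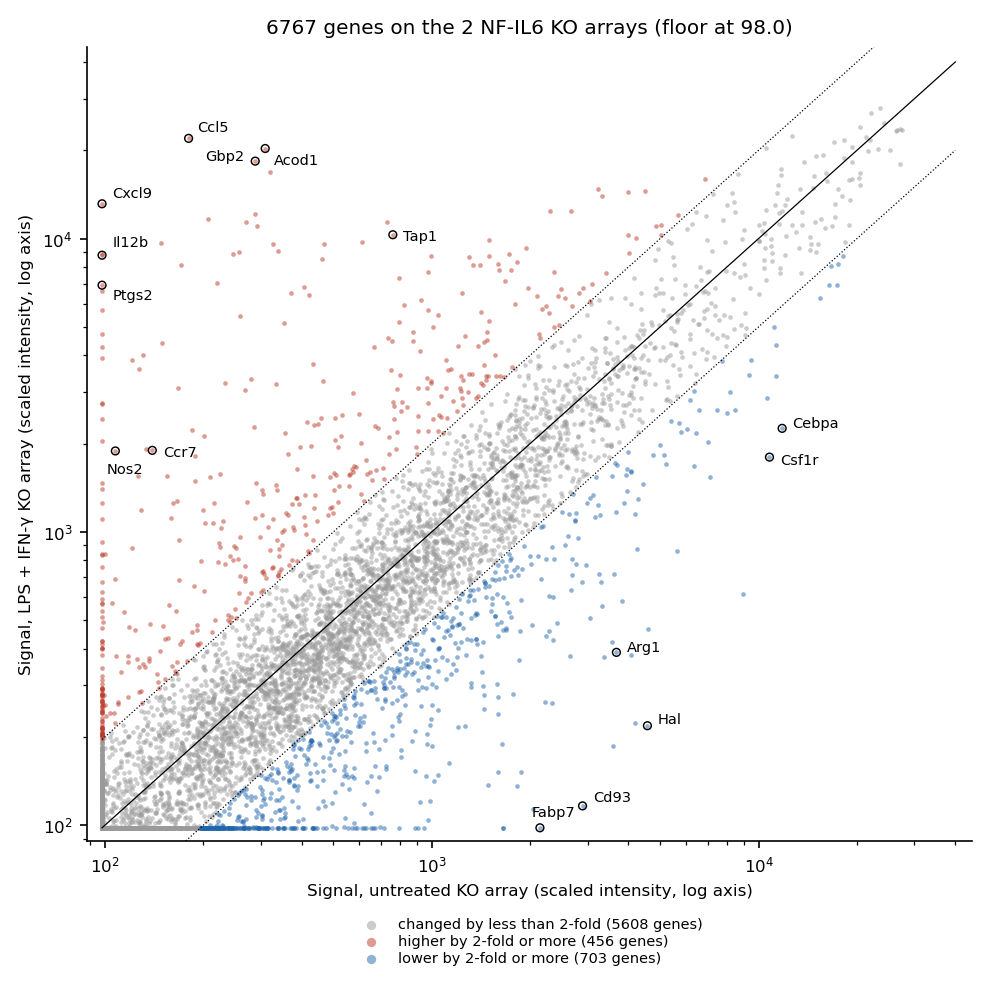
Signal of each of 6767 genes on the untreated (x axis) and stimulated (y axis) NF-IL6 KO array, scaled intensity on log axes, with values under 98.0 drawn at the floor. The solid line marks equality and the dotted lines 2-fold. Of all genes, 456 lie above the upper dotted line and 703 below the lower one, with Ccl5, Acod1, Gbp2 and Cxcl9 among those far above and Cd93, Hal and Fabp7 among those far below.

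The 25 largest rises among genes above the floor on both KO arrays ran from Ccl5 to Nos2. Ccl5 (RANTES), which draws T cells and monocytes, rose from 180.3 to 21963, a fold of 122. Acod1, the enzyme that makes itaconate, rose from 309 to 20283, a fold of 65.6. Both untreated signals were above the floor, so these folds are measured on both sides.

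Ifit2, an interferon-induced protein with tetratricopeptide repeats, rose from 149 to 9686 (log2 response 6.02). Gbp2 and Gbp2b, guanylate-binding proteins of cell-autonomous defence, rose from 288 to 18369 and from 206 to 11670, and the ubiquitin-like modifier Isg15 from 321 to 16815. Serpinb9, an inhibitor of granzyme B, went from 269 to 11430 and AW112010 from 287 to 12103. These 5 genes had log2 responses of 5.99, 5.82, 5.71, 5.41 and 5.40. Fgl2, a prothrombinase and immune regulator, rose from 247 to 8839 (5.16), which was a larger log2 response than the 2.82 in WT and 3.97 in KI cells.

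Cd40, the receptor for CD40 ligand on antigen-presenting cells, rose from 327 to 9604, and Glipr2 from 128 to 3579. Car2, a carbonic anhydrase, rose from 259.6 to 5446, and its stimulated signal was 1239.9 in WT and 1758 in KI cells. Cnn3, the actin-binding calponin, rose from 168 to 3085. Nos2, the last of these 25, had a log2 response of 4.13.

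A further group started under the floor. Cxcl9, an interferon-γ-induced chemokine, reached 13143 from 31.0, at least 134-fold. Iigp1, an interferon-inducible GTPase, reached 8867 (at least 90.5-fold), and Il12b, the p40 subunit of interleukin 12 and 23, 8779 (at least 89.6-fold). Ptgs2, the inducible cyclooxygenase, reached 6938 (at least 70.8-fold) and Gm9706 6635 (at least 67.7-fold).

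These 5 genes were followed by Cxcl10, Mx1, Cst7, Upp1, Traf1, Cmpk2, Il18bp, Ccl12, Slco3a1 and Isg20, which reached signals from 1399 to 5707. Cst7 is an inhibitor of cysteine proteases, at 4283 after stimulation (at least 43.7-fold). Upp1, the uridine phosphorylase, stood at 3908 (at least 39.9-fold), while another probe set of Upp1 read 467 and 564, and Il18bp, which binds and blocks interleukin 18, at 2431 (at least 24.8-fold).

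**Figure D2:**
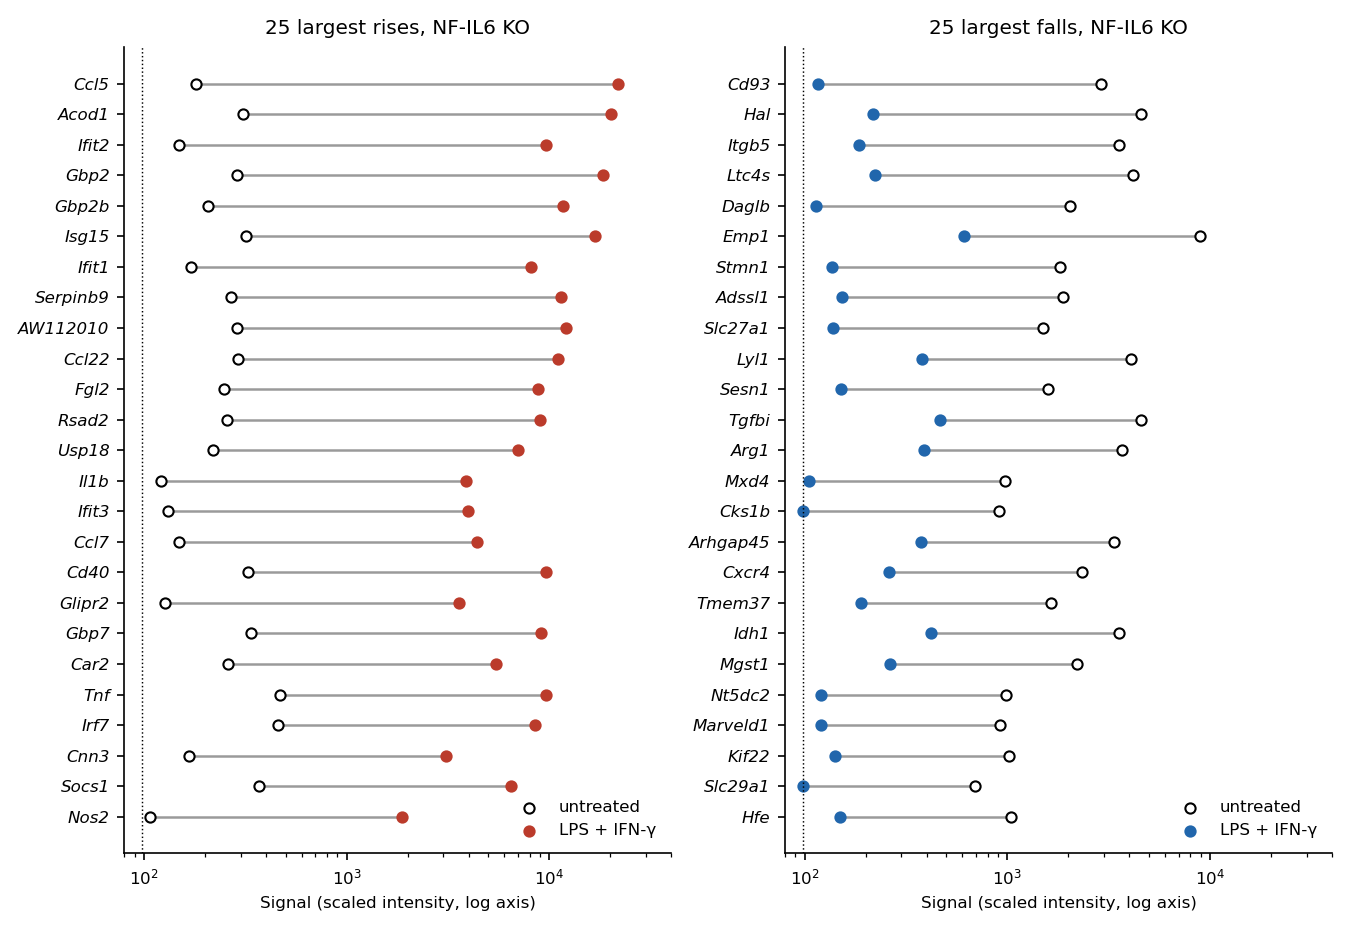
Signals on the untreated (open circles) and stimulated (filled circles) NF-IL6 KO array for the 25 genes with the largest rises (left) and the 25 with the largest falls (right) among genes above the floor on both arrays, on a log axis of scaled intensity. The dotted line marks the floor of 98.0. Rises run from Ccl5, at 180.3 and 21963, to Nos2, at 107.6 and 1888, and falls from Cd93, at 2894 and 116.4, to Hfe.

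The promoters of the strongly induced genes were searched for short letter patterns of the factors named above. RefSeq promoter sequences, from 250 bases before to 50 after the start site, matched 52 of the 67 genes that rose by at least 3, with 63 promoters, and 103 of the 117 genes that fell by at least 2, with 141. Each pattern was read on both strands. The ISRE core GAAANNGAA was in 27.0% of promoters of the strongly induced genes, in 5.67% of those of the fallen genes, in 6.99% of 6968 promoters of measured genes and in 8.56% of all 32851 promoters in the table. The GAS core TTCNNNGAA was in 15.9%, 9.22%, 6.93% and 8.30%. The κB pattern GGGNNTTCC was in 4.76%, 7.80%, 7.20% and 5.82%. This pattern has a fixed length, so longer forms of a κB site were not counted.

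The C/EBP core TTGCNNAA was in 15.9% of promoters of genes strongly induced in these cells without C/EBPβ, in 8.51% of those of fallen genes, 9.14% of measured and 10.8% of all. The TATA pattern TATAAA was in 22.2%, 5.67%, 9.18% and 13.6%. A gene can have several promoters in the table, and matches of different patterns can overlap. These shares are descriptions of letters in a window and no test was made of them.

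The following sequences show 250 bases before the start site, 5′ to 3′ in the direction of the gene, GRCm38.p6 from RefSeq, with matches to the ISRE, GAS, κB and C/EBP patterns in capitals. Cxcl10, Ccl5, Nos2 and Ptges were set for printing beforehand, but the promoter table has no entry for Ccl5 and Nos2. Isg15, Gbp2, Igtp and Irf1 were added after the search because they carry matches. Cxcl10 (chr5:92348890-92349139, minus strand) has an ISRE core 213 bases and a κB match 103 bases before the start. The stretch gggaaattcc, longer than the κB pattern, also lies in this window and was not counted as a match.
Cxcl10: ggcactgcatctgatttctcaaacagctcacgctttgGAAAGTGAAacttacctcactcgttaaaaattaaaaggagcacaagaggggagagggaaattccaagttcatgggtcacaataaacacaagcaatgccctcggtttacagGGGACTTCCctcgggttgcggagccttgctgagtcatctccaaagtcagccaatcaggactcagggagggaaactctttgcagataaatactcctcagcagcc
Isg15 (chr4:156200819-156201068, minus strand) has 3 overlapping ISRE cores, the nearest 66 bases before the start.
Isg15: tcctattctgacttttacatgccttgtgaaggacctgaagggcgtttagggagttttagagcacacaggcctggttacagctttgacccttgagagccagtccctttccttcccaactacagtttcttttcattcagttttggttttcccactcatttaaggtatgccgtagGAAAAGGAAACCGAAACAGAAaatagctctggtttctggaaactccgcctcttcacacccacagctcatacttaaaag
Gbp2 (chr3:142620413-142620662, plus strand) has the ISRE core on the opposite strand 58 bases before the start.
Gbp2: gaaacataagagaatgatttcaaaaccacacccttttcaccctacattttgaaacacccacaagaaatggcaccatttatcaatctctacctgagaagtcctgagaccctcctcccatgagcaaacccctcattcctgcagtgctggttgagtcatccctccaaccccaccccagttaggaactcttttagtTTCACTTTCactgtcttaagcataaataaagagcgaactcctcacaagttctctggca
Igtp (chr11:58199306-58199555, plus strand) holds a GAS core 45 and an ISRE core 34 bases before the start.
Igtp: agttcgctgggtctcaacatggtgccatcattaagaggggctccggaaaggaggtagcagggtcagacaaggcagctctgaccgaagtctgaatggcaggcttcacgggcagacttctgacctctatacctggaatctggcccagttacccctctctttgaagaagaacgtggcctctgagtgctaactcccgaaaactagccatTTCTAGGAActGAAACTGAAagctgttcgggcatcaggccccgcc
Irf1 has 2 promoters in the table, and the first (chr11:53769764-53770013, plus strand) holds a GAS core 90 bases before the start.
Irf1: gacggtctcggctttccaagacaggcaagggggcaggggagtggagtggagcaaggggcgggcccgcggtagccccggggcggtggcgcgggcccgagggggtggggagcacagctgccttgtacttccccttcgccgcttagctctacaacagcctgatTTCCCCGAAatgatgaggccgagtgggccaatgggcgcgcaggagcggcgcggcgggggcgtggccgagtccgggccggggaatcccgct
Ptges (chr2:30903298-30903547, minus strand) has no match to any of these patterns in this window, which says only that these letters are not in it.
Ptges: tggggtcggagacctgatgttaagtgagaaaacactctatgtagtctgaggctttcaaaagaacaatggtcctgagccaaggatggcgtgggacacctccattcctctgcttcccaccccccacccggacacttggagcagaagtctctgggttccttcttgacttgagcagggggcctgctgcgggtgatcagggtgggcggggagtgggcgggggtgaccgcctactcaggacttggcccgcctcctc

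Of 13 measured genes of Toll-like receptor signalling, 1 rose and 0 fell, against the shares of 6.74% and 10.4% over all genes, with a median log2 response of 0.42, while 3 rose and 3 fell in WT and 3 rose and 1 fell in KI cells. Tlr6, which pairs with Tlr2, rose from 519 to 1435. Cd14, the LPS co-receptor, stood at 5258 to 2845 in KO, 6867 to 7915 in WT and 5109 to 2642 in KI cells, log2 responses of -0.89, 0.20 and -0.95. Myd88, the adaptor, read 889 to 1458.

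Of 13 genes of interferon receptors and JAK-STAT, 3 rose and 2 fell, against 6.74% and 10.4% of all genes. Jak2, the kinase of the interferon-γ receptor, rose from 410.2 to 1333 and Stat3 from 1572 to 3399. Stat4, a transducer of interleukin 12 signals, rose from under the floor (38.9 to 381, at least 3.89-fold), while its WT signals were 154 to 100.4 and its KI signals 85.0 to 118. Ifngr1, the ligand-binding chain of the interferon-γ receptor, fell from 910.1 to 290.1 with a log2 response of -1.65, against -1.99 in WT and -1.62 in KI cells. Ifnar2, a chain of the type I interferon receptor, fell from 1455 to 670.2, whereas it read 781 to 951 in WT and rose from 459 to 1079 in KI cells. Another probe set of Ifnar2 read 823 to 582 in KO, a log2 response of -0.50.

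Of 11 inhibitors of cytokine signalling, 4 rose and 1 fell in KO, with a median of 0.22, while 5 rose and 0 fell in WT (0.40) and in KI cells (0.69). Usp18, which removes ISG15 and blocks type I interferon receptor signalling, rose from 220.1 to 7038, Socs1, which blocks JAK kinases, from 371 to 6517, and Socs3 from 201 to 2119.9. Ptpn6, a phosphatase, also rose, and Pias3 fell. Of 7 interferon regulatory factors, 4 rose and 0 fell. Irf7 went from 461 to 8504, Irf1 from 995 to 8749, Irf8 from 1972 to 6805 and Irf5 from 4012 to 8956. Irf3, the factor downstream of TRIF, read 450.3 to 279.9 and Irf9, a subunit of ISGF3, 922 to 1453.

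All 11 measured interferon-inducible GTPases rose in KO cells, against 6.74% of all genes, with a median log2 response of 3.99 in KO, 4.37 in WT and 4.75 in KI cells. Responses ran from 2.28 for Irgm2 to at least 6.50 for Iigp1. Gbp7 rose from 338 to 9073, Gbp3 from 613 to 9733, Ifi47 from 423 to 6406 and Igtp from 279 to 3325. Mx1 and Mx2, which act against viruses, reached 4727 and 838 in KO cells from under the floor, against 2515 and 409 in WT and 3388 and 621 in KI cells, so that KO was the highest of the 3 stimulated arrays for both.

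Of 25 type I interferon antiviral genes, 18 rose and 1 fell, with a median log2 response of 2.05 in KO, 2.15 in WT and 2.18 in KI cells. Rsad2, the antiviral enzyme viperin, rose from 258 to 8976, and Ifih1, a sensor of double-stranded RNA, from 353 to 5173. Cmpk2, a nucleotide kinase that lies beside the viperin gene, reached 2729 from under the floor. Ifit1 and Ifit3 rose from 170.4 to 8138 and 131 to 3998. Ifi27 fell, with a log2 response of -1.37, and Eif2ak2, the RNA-activated kinase PKR, read 174 to 206. Members of the Gbp, Ifit and p200 families are similar in sequence, so their probe sets may share signal.

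The 4 genes of the p200 family of DNA sensors all rose, and their median was 2.63. Ifi204 rose from 1241 to 6534 and Ifi209 from 121 to 881. Ifi202b rose from 432 to 3726 in KO cells and, in WT cells, from 934 to 3719, but gave 7.10 and 1.0 on the KI arrays. All samples carry the same strain label, and whether the strain background of the KI line differs, which would bear on every comparison with KI cells, was not tested.

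Of 17 subunits and regulators of NF-κB, 10 rose and 0 fell in KO cells, 11 rose and 1 fell in WT and 12 rose and 0 fell in KI cells, and the medians were 1.39, 1.35 and 1.58. Nfkbia, the inhibitor IκBα and a direct NF-κB target, rose from 1492 to 8724, from 1834 to 8632 in WT and, in KI cells, from 1404 to 8439. Tnfaip3, the ubiquitin-editing enzyme A20, rose from 166 to 1269.8, Nfkb2 from 414 to 2370.3 and Bcl3 from 388 to 1305. Traf1, a TNF receptor adaptor, reached 2748 from under the floor. Nfkbiz, the IκBζ cofactor of secondary response genes, rose from 230.2 to 1093. Rela read 3189 to 3918 and Relb 854 to 1214.

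Among 20 AP-1 and ATF factors, 5 rose and 1 fell. Batf reached 837 from 28.8, Junb rose from 1478 to 4526 and Fos from 1487 to 3407, whereas Jun fell from 295 to 40.7. Of 19 phosphatases and early feedback genes, 4 rose and 3 fell. Ier3 and Dusp1, the MAP kinase phosphatase MKP-1, rose from 875 to 4809 and from 2106 to 6368, and Zfp36, which destabilises Tnf mRNA, from 1612 to 3411. Gadd45a, Dusp6 and Egr2 fell to 15.4, 105 and 1096.

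In the C/EBP family itself, 0 of 5 measured members rose and 2 fell. Cebpa fell from 11811 to 2255 in KO, from 7986 to 2336 in WT and, in KI cells, from 9097 to 3169. Cebpg fell from 794 to 226, Cebpd read 1223 to 816 and Ddit3, the stress-induced factor CHOP, 269.5 to 233. None of the 4 members other than Cebpb therefore stood higher on the stimulated than on the untreated KO array.

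Cytokine genes were induced in KO cells, with 9 of 17 rising and 0 falling, a median log2 response of 1.55, and responses led by Il12b, Il1b and Tnf. Il12b reached 8779 in KO against 4066 in WT and 2988 in KI cells, all from under the floor. Tnf rose from 467 to 9609.6 in KO, from 206 to 13549 in WT and, in KI cells, from 402 to 14223. Il1b rose from 121 to 3869.8 in KO, from 53.7 to 7088 in WT and, in KI cells, from 68.0 to 2396. The stimulated KO array was thus the highest of 3 for Il12b, the lowest for Tnf and between the others for Il1b.

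Il6, after which the factor is named, reached 1257 from 53.3 in KO cells, at least 12.8-fold, with stimulated signals of 1908 in WT and 659 in KI cells. Il1a rose from 115 to 532 in KO, whereas it went from 232 to 3956 in WT and, in KI cells, from 338 to 2302. The interleukin 1 receptor antagonist Il1rn rose from 2293 to 12425. Il15, a growth factor of NK and memory T cells, rose from 98.8 to 493 against 181 to 189.9 in WT and 6.4 to 336 in KI cells, and Ebi3, a subunit of interleukins 27 and 35, from 529 to 2123. Il18 rose from 126 to 369.

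Of 13 colony-stimulating and growth factors, 4 rose and 3 fell. Hbegf, Vegfa, Inhba and Csf1 rose to 793, 485, 304 and 624, and Gdf3, Vegfb and Pdgfa fell to 40.3, 170.2 and 816. Csf3, which encodes G-CSF, read 179.7 to 228 in KO, 202 to 508 in WT and 159 to 307 in KI cells. Of 16 genes of the TNF family and its receptors, 3 rose: Cd40, Tnf and Tnfsf9, the ligand 4-1BBL, at 265 from under the floor.

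Receptors for cytokines moved both ways, with 4 of 21 rising and 4 falling, against 6.74% and 10.4% of all genes. Csf1r, the receptor of the macrophage growth factor M-CSF, fell from 10801 to 1799 with a log2 response of -2.59, against -0.48 in WT and -1.93 in KI cells. Il12rb1 reached 426 from under the floor, and Il15ra, Il4ra and Il10ra rose to 893, 1629 and 1349.9. Another probe set of Il4ra read 164 to 137, a log2 response of -0.26. Il1r1 fell to 55.7, under the floor. Csf2rb, the shared chain of the GM-CSF receptor, fell from 3699 to 1692 in KO cells but rose from 1137 to 2618 in WT cells and read 2398 to 2517 in KI cells. Il6ra fell from 538 to 269 in KO and, in KI cells, from 331 to 123, but rose from 160 to 421 in WT.

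**Figure D3:**
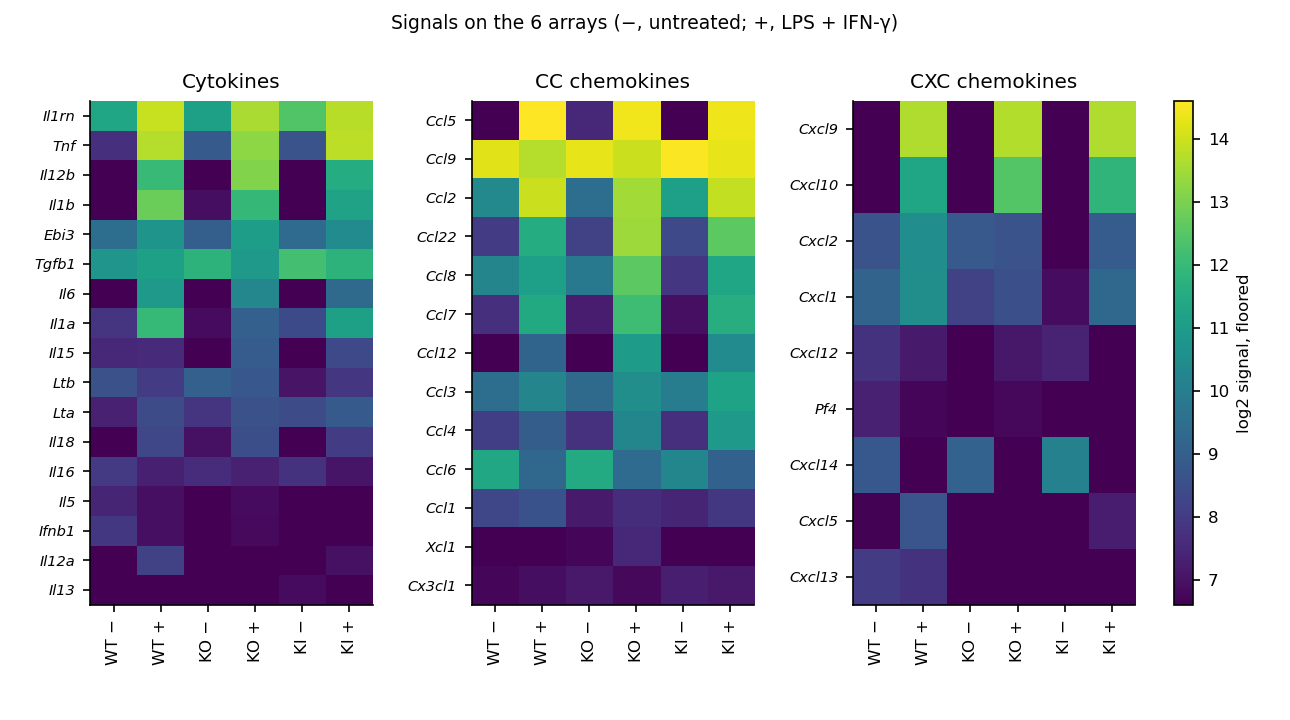
Signals of 17 cytokine, 13 CC chemokine and 9 CXC chemokine genes (rows, ordered by the stimulated KO signal) on the 6 arrays (columns, untreated − and stimulated +). Colour gives log2 of the scaled intensity, floored. Cxcl9 and Ccl5 are bright on all 3 stimulated arrays, whereas Cxcl1 and Cxcl2 are dim on the stimulated KO array, at 380.2 and 405.8.

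Of all genes, 6.74% rose and 10.4% fell in KO cells. Of 13 CC chemokines, 8 rose and 1 fell, with a median log2 response of 2.54 in KO, 0.85 in WT and 2.72 in KI cells. Of 9 CXC chemokines, 2 rose and 1 fell in KO, with a median of 0.17, while 5 rose in WT and 4 in KI cells. The 2 that rose in KO were Cxcl9 and Cxcl10, ligands of CXCR3 on T cells, and Cxcl10 reached 5707 in KO, 2579 in WT and 3649 in KI cells.

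The neutrophil-attracting ligands did not rise 2-fold in KO cells. Cxcl1 read 288 to 380.2 in KO, against 565 to 1520.4 in WT and 117 to 618 in KI cells. Cxcl2 read 459.7 to 406 in KO, 401 to 1493 in WT and 68.0 to 496 in KI cells, and Cxcl5 stayed under the floor in KO at 32.7 to 94.1 while reaching 419 in WT and 154 in KI cells. Its log2 response of -0.18 put Cxcl2 among the genes whose KO response lay below both others by at least 1. Cxcl14 fell to 97.4, under the floor.

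Monocyte and T cell attracting ligands were high. Ccl2, the main ligand of CCR2, rose from 731 to 11419 in KO, from 1327 to 15864 in WT and, in KI cells, from 2248 to 14831. Ccl7 and Ccl12, other ligands of CCR2, reached 4420.3 and 2044 in KO cells, compared with 2831 and 579 in WT and 3114 and 1409 in KI cells. Ccl8 reached 6152 against 2224 and 2547. Ccl22, a ligand of CCR4, rose from 291 to 11070 (log2 response 5.25) against 262 to 3049 (3.54) in WT and 333 to 6199 (4.22) in KI cells. For Ccl7, Ccl8, Ccl12 and Ccl22 the stimulated KO array was the highest of 3. Ccl3 and Ccl4 rose to 1503 and 1251, and Ccl6 fell from 2889.6 to 675.

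Of 14 chemoattractant receptors, 3 rose and 4 fell. Ccr7, which guides cells to lymph nodes, rose from 139.6 to 1897 in KO, from 85.2 to 436 in WT and, in KI cells, from 78.5 to 335. Fpr2, a formyl peptide receptor, reached 926 from under the floor, and Ccrl2 rose from 392 to 1240.4. Ccr2, the CCL2 receptor of monocytes, fell from 5625 to 860.2 and Cxcr4 from 2331 to 261. C3ar1, the receptor of complement C3a, fell from 7001 to 2021 and Ltb4r1, a leukotriene B4 receptor, from 719.6 to 195.

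Of the 2 enzymes that compete for arginine, Nos2 rose and Arg1 fell in KO cells. Nos2, the inducible nitric oxide synthase, rose from 108 to 1888 in KO, from 102 to 2766 in WT and, in KI cells, from 85.9 to 2579. Arg1, arginase, fell from 3674 to 388 in KO, a log2 response of -3.24, while it read 3949 to 3320.1 in WT and 194 to 132 in KI cells. The fall in KO was 9.46-fold, from an untreated signal near that of WT and far above that of KI cells. Ass1, which makes argininosuccinate, rose from 341 to 829.8, Gch1, which makes the nitric oxide synthase cofactor, from 597 to 2523 and Odc1 from 304 to 633.

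Slc7a2, an arginine transporter, rose from 255 to 807 in KO, against 251 to 4156 in WT and 220.1 to 985 in KI cells. Pts and Sat1 fell, and in all 5 of 14 members rose and 3 fell.

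Of 16 prostaglandin and leukotriene genes, 4 rose and 3 fell. Pla2g4a, the phospholipase that frees arachidonic acid, rose from 169 to 940.1, and Ptgs2 rose to a level between 4746 and 6938 in all 3 genotypes. Ptges, the inducible prostaglandin E synthase, reached 242 from 60.6 in KO, against 199.5 to 2525 in WT and 124 to 289.7 in KI cells. Ptger4, a receptor of prostaglandin E2, rose from 289 to 1112 and Ptger2 fell from 307 to 81.0, under the floor. Ltc4s, the leukotriene C4 synthase, fell from 4189 to 223 with a log2 response of -4.23 in KO and -3.92 in WT cells, but -0.90 in KI cells, where its untreated signal was 183. Lta4h fell from 3183 to 1538.

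Of 19 glycolysis genes, 6 rose and 1 fell (median log2 response 0.33), among them Pfkp from 734 to 4581, Hk2 from 766 to 2678 and the glucose transporter Slc2a1 from 807 to 2579, with Ldhb falling. Of 51 measured subunits of oxidative phosphorylation, 1 rose, Cycs, and 0 fell, with a median of -0.12 that turned to 0.03 with median centring. In the citric acid cycle list of 24 genes, Acod1 alone rose, and Idh1, Idh2 and Suclg2 fell, Idh1 from 3568 to 421. Of 25 antioxidant genes, 3 rose and 2 fell: Sod3, Sod2 and Mt2 rose, Sod2 from 515 to 1261 against 595 to 5593 in WT and 427 to 2874 in KI cells, and Gpx3 and Gpx4 fell. Of 12 cytosolic heat shock genes, 4 rose and 0 fell, Hspa1b from 155 to 1552 and Hspa1a from 162 to 1253, whose sequences are nearly the same.

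The next lists are given against the 6.74% of all genes that rose and the 10.4% that fell. Of 6 NADPH oxidase genes Rac2 alone rose, and of 15 iron and haem genes Blvra alone fell, with Hmox1, the haem oxygenase, at 11805 to 12373 in KO, 12555 to 23931 in WT and 7004 to 16706 in KI cells. Of 18 cholesterol and fatty acid genes, 0 rose and 2 fell, of 18 endoplasmic reticulum chaperones 0 and 3, of 27 ribosomal proteins 0 and 2, and of 27 translation factors 2 and 4. Of 32 constitutive proteasome subunits, 5 rose and 0 fell, and their median was 0.46. Of 23 apoptosis genes, 9 rose and 1 fell, with Bnip3 at 126 to 1556, Casp4 at 226 to 1032 and Cflar, the inhibitor of caspase 8, at 226 to 886, while Casp9 fell. The Casp9 fall, a log2 response of -1.18, was on its brightest probe set, and its other probe sets had -0.82, -0.68 and -0.11.

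In class I presentation, 7 of 15 members rose and the chaperone Pdia3 fell. Tap1, which carries peptides into the endoplasmic reticulum, rose from 760.2 to 10306, its partner Tap2 from 303 to 1138 and Tapbp from 3994 to 14366. The immunoproteasome subunits Psmb8, Psmb9 and Psmb10 rose to 12385, 5719.6 and 9314, and the activator Psme1 to 7808. H2-K1 read 18320 to 21742 and H2-D1 23500 to 27899, neither past 2-fold.

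Of 13 class II genes, 3 rose and 1 fell. Ciita, the master regulator of class II transcription, rose from 169 to 687, H2-DMb1 and H2-DMa, which load peptides, from 1417 to 5629 and 2364 to 7703. H2-Ab1 read 5270.5 to 9814, H2-Aa 11432 to 15195 and Cd74, the invariant chain, 20426 to 23968. Lgmn, a protease of antigen processing, fell from 11326 to 4336.

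Costimulatory and adhesion genes had 8 of 14 members rising and 1 falling, with a median of 1.71 in KO, 0.98 in WT and 0.46 in KI cells. Cd86 rose from 406 to 6816 and Cd83 from 821 to 5927, against stimulated signals of 3358 and 2621 in WT and 4889 and 6782 in KI cells. Cd80 read 179.7 to 219. Icam1 and Vcam1, adhesion molecules for leukocytes, reached 4476 and 1108 in KO, 5226 and 1998 in WT and 8227 and 2228 in KI cells. Fscn1, the actin-bundling protein of mature dendritic cells, rose from 781 to 3079 in KO while reading 1416 to 1318 in WT and 1488 to 1913 in KI cells. Of 13 integrins, Itgal and Itga5 rose, and Itgb5, Itgb7 and Itgam fell, where 6.74% of all genes rose and 10.4% fell. Of 23 actin cytoskeleton genes 7 rose and 1 fell, but the 2 probe sets of Actb moved in opposite directions, by 2.72 and -2.91.

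The 25 largest falls among genes above the floor on both KO arrays ran from Cd93 to Hfe. Cd93, a receptor linked to clearance of dying cells, fell from 2894 to 116, 24.9-fold. Hal, the histidine-degrading enzyme, fell from 4570.3 to 218 and the integrin Itgb5 from 3575 to 186, while another probe set of Itgb5 read 714 to 371, a log2 response of -0.94. Daglb, a diacylglycerol lipase, fell from 2045 to 114 and Emp1 from 8959.6 to 614.

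The fatty acid transporter Slc27a1 fell from 1492 to 137 and Tgfbi, a secreted matrix protein, from 4590 to 467, where WT went from 1025 to 354 and KI from 1003 to 199. Lyl1, a transcription factor of blood cells, fell from 4061 to 379, the stress-response gene Sesn1 from 1594 to 151, and Mxd4, a partner of MAX, from 971 to 104. Mgst1, a microsomal glutathione transferase, fell from 2216 to 262, and Hfe, which regulates iron uptake, from 1047 to 148. Adssl1, Arhgap45, Tmem37, Marveld1 and Slc29a1, a nucleoside transporter, fell with log2 responses from -3.62 to -2.82.

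Others ended under the floor. Fabp7, a fatty-acid-binding protein, went from 2143 to 62.5 (at least 21.9-fold lower), Rnase4 from 1653 to 63.9, and Dab2, an endocytic adaptor, from 1651 to 46.9. Id3, an inhibitor of helix-loop-helix factors, went from 946 to 87.3, Rnaseh2c from 888 to 90.2 and the ubiquitin protease Usp2 from 671 to 47.0. Pdcd4, an inhibitor of translation, went from 614 to 34.3 and Padi4, a peptidylarginine deiminase, from 593 to 90.7.

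Of 11 pattern-recognition and scavenger receptors, 7 fell and 1 rose, with a median of -1.33, where 10.4% of all genes fell and 6.74% rose. In WT 3 fell and in KI 7. Mrc1, the mannose receptor, fell from 659 to 82.5, Stab1 from 1448 to 248 and Msr1, the scavenger receptor A, from 1588 to 484. Msr1 read 1223 to 1156 in WT and fell from 1138 to 401 in KI cells. Marco, another scavenger receptor, reached 256 in KO from 12.1, against 202 to 2055 in WT and 21.1 to 2266 in KI cells, so its response was 1.38, 3.35 and 4.53. Clec4e, the receptor Mincle, read 61.9 to 191 in KO, 221 to 1886 in WT and 98.0 to 484 in KI cells.

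Of all genes, 10.4% fell and 6.74% rose in KO, 10.6% and 8.82% in WT and 8.6% and 5.88% in KI cells. Of 21 genes of alternative activation and resident macrophages, 10 fell and 1 rose in KO, 7 and 3 in WT and 5 and 2 in KI cells. The median was -0.80 in KO, -0.50 in WT and -0.04 in KI cells. Gas6, a bridge to dying cells, fell from 727 to 156, Cd5l from 800.2 to 239, Folr2 from 3962 to 1644 and Chil3 from 862 to 369. Of 25 genes of lipid uptake, efflux and nuclear receptors, 12 fell and 2 rose in KO, 11 and 4 in WT and 12 and 3 in KI cells, with a KO median of -0.98. Pparg, the lipid-sensing nuclear receptor, fell from 433 to 17.5, Fabp4 from 579 to 145, Fabp5 from 3867 to 1254, Cd36 from 465 to 120.5 and Plin2, the lipid droplet coat, from 17333 to 6933. Abca1, the cholesterol exporter, fell from 1052 to 401 in KO and, in KI cells, from 809 to 249, while reading 488 to 825 in WT, and another probe set of it read 143 to 135 in KO. The 2 that rose were Nr1h3, the receptor LXRα, from 813 to 2783, and Ch25h, which makes 25-hydroxycholesterol, from 129 to 1185.

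Of 38 lysosome genes, 6 fell and 0 rose (median -0.41): Lipa, Atp6v0a1, Npc1, Man2b1, Laptm5 and Ctsl. Of 5 Fc receptor genes, Fcgr1, the high-affinity IgG receptor, rose from 1265 to 4638 and Fcgr2b, the inhibitory receptor, fell from 2416 to 488. Of 16 complement genes, 2 rose (Serping1 and Cfb) and 2 fell, and of 18 coagulation genes 2 rose and 4 fell, Procr, the protein C receptor, rising from 795 to 7356. Of 13 metalloproteinases and inhibitors, Timp1 rose from 1403 to 8143 and 4 fell, Timp2 from 1206 to 217. Mmp14, a membrane metalloproteinase, read 788 to 1325 in KO, against 896 to 4096 in WT and 897 to 3927 in KI cells.

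Acute-phase and secreted defence genes had 3 of 18 rising and 1 falling. Saa3, serum amyloid A3, rose from 459.8 to 2443 in KO, and its signals were 16042 to 27344 in WT and 2639 to 5879 in KI cells, so the KO response was larger (2.41 against 0.77 and 1.16) from a lower start to a lower end. Lcn2, lipocalin 2, read 364 to 411 and Slpi, a protease inhibitor, 319.9 to 328 in KO, with Slpi at 2119 to 4592 in WT and 821 to 906 in KI cells.

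Genes of S phase and mitosis fell in KO cells. Of 36 measured members of the proliferation list, 17 fell and 0 rose in KO, with a median log2 response of -0.91, where 10.4% of all genes fell. In WT 6 fell (median -0.39), where 10.6% of all genes did, and in KI 8 (median -0.56), where 8.6% did. Stmn1, which destabilises microtubules, fell from 1822 to 136 in KO, from 568 to 184 in WT and, in KI cells, from 833 to 173. Cdk1, the mitotic kinase, fell from 712 to 48.0 in KO and read 275 to 208 in WT and 325 to 102 in KI cells. Ccnb2 and Ccna2, its cyclins, fell from 1580.3 to 303 and 998 to 229 in KO.

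The untreated KO level of these genes was high. For 23 of the 36 genes the untreated KO signal was the highest of the 3 untreated arrays, and for 9 it was above both others by at least 1 on the log2 scale, against 1787 and 71 of all 6767 genes. The median of the untreated level was 0.70 above WT and 0.79 above KI on the log2 scale. On the stimulated arrays the same medians were -0.15 and 0.00. The floor keeps a gene from falling 2-fold where its untreated signal is less than 2-fold above it. How far this limited the counts of falls in WT and KI cells was not tested. Birc5, survivin, stood at 795 in untreated KO against 229 in WT and 148 in KI cells, and at 60.3, 99.4 and 57.2 after stimulation.

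Pclaf, a PCNA-binding factor, and Hmgb2, a chromatin protein, had untreated signals of 584 and 620.1 in KO, 155 and 128 in WT and 176 and 139.7 in KI cells. Tk1, thymidine kinase, fell from 652 to 93.0 in KO but rose from 125 to 501 in WT and read 302 to 237 in KI cells. Cdc20, Cks1b, Mad2l1 and the kinesin Kif22 fell in KO to signals of 60.2, 98.0, 118 and 141, from 628, 908, 620.4 and 1014. One probe set of Mki67 read 196 to 223 in KO, while another fell from 452 to 24.9, so the proliferation marker Ki-67 gave no single answer.

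Among 22 genes of G1 cyclins and CDK inhibitors, 7 rose and 3 fell. Ccnd2 reached 757 from under the floor and Ccnd1 rose from 210.1 to 1541 in KO, against 135 to 362 in WT and 764 to 1698 in KI cells. Another probe set of Ccnd1 read 167.5 to 319.2 in KO, a log2 response of 0.93. Cdkn1a, the CDK inhibitor p21, rose from 1121 to 3572, with stimulated signals of 4131 in WT and 3794 in KI cells. Myc and E2f1 fell to under the floor, at 78.3 and 72.5.

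**Figure D4:**
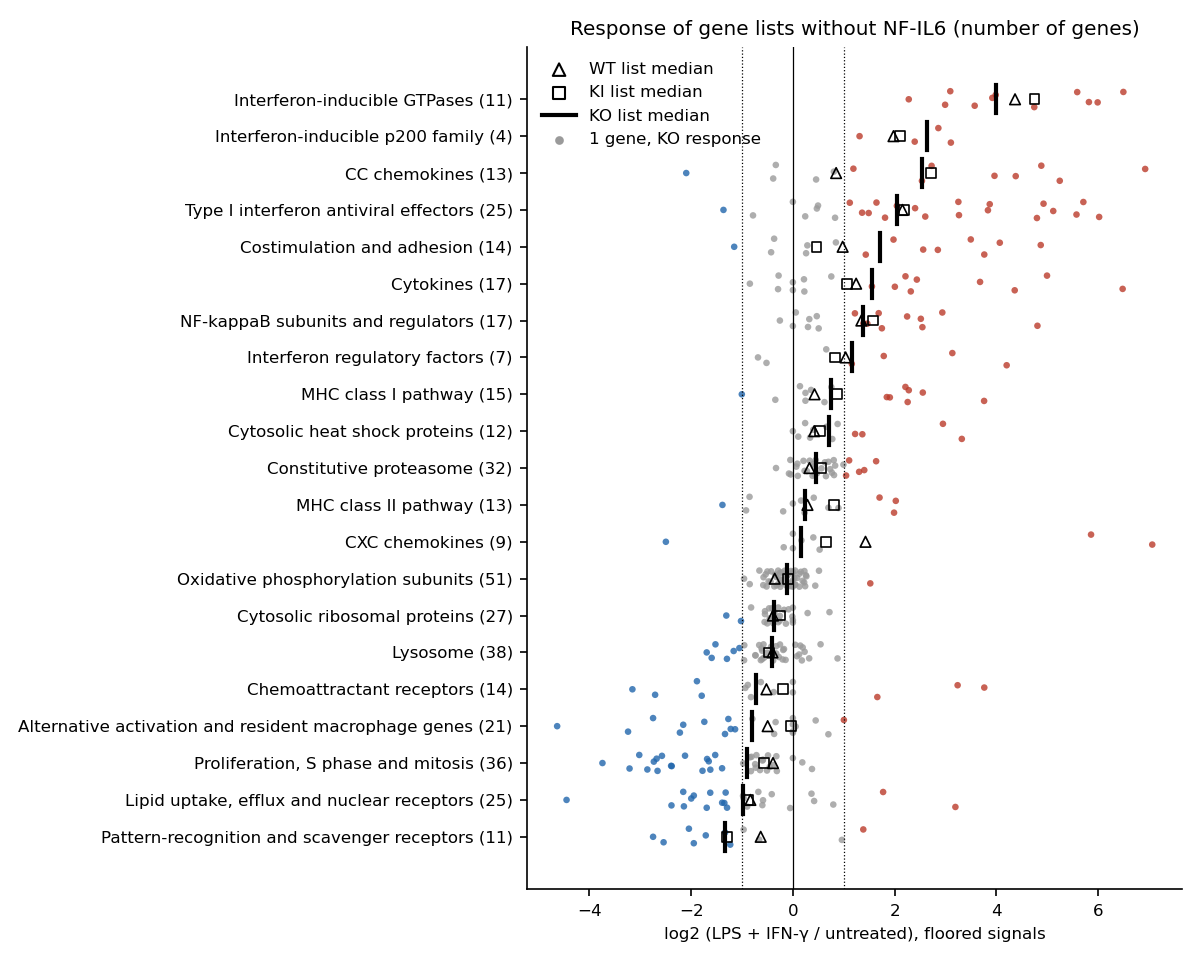
log2 response of each measured gene (dots, red for rises and blue for falls of at least 2-fold) of 21 gene lists in NF-IL6 KO cells, with the KO list median (bar) and the medians in WT (triangle) and KI cells (square). All 11 interferon-inducible GTPases lie above 1, and 17 of 36 proliferation genes and 7 of 11 pattern-recognition and scavenger receptors lie at or below -1.

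A list of 24 measured genes named in the literature as C/EBPβ targets moved in both directions in the KO cells, with 10 rising and 4 falling, as against 10 and 1 in WT and 10 and 4 in KI cells. Of all genes, 6.74% rose and 10.4% fell in KO, 8.82% and 10.6% in WT and 5.88% and 8.6% in KI cells. The 10 that rose in KO were Ptgs2, Il1b, Tnf, Nos2, Ccl2, Il6, Il1rn, Saa3, Ptges and Ccl3. The 4 that fell were Arg1, Csf1r, Cebpa and Msr1, and of these Cebpa alone fell in WT cells, while Csf1r, Cebpa and Msr1 fell in KI cells. The list's median was 0.26 in KO, 0.51 in WT and 0.57 in KI cells.

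Most genes that rose in KO cells also rose in another genotype. Of 456 genes that rose in KO, 310 also rose in WT, which is 68.0% of the KO list and 51.9% of the 597 WT genes, and 292 also rose in KI, 64.0% of the KO list and 73.4% of the 398 KI genes. Of the 703 that fell, 335 also fell in WT (47.7% of the KO and 46.7% of the WT list) and 334 in KI (47.5% and 57.4%). Of all 6767 genes, 8.82% rose and 10.6% fell in WT, and 5.88% rose and 8.6% fell in KI cells. A rise in KO alone was seen for 91 genes and a fall in KO alone for 229. Both counts rest on a fixed threshold with 1 array a side. In KO, 145 genes lay within 0.1 outside the threshold for falls and 102 within 0.1 inside it. No gene rose or fell 2-fold in KO with a 2-fold change the other way in both other genotypes.

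On the log2 scale, 65 genes (0.961%) had a KO response at least 1 above both others, and 103 (1.52%) had one at least 1 below both. The WT response stood above both others for 297 genes and below for 172, and the KI response for 126 and 118, so the KO response stood apart least often of the 3 in sum. Of the 103, the untreated KO array alone was above both other untreated arrays by at least 1 for 35, the stimulated KO array alone was below both other stimulated arrays for 11, and both held for 1. Of the 65, the stimulated KO array alone stood above both others for 19 and the untreated one alone below for 9. The differences from WT and from KI share the KO arrays.

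Genes whose KO response lay above both others included Hipk2, a nuclear kinase, which reached 624 in KO from 51.5, against 36.7 to 83.5 in WT and 699.6 to 509 in KI cells. Cytip, a regulator of leukocyte adhesion, rose from 1674 to 7156 in KO and read 1532 to 2370.2 in WT and 1566 to 1679 in KI cells. Cd72, a B cell and macrophage surface protein, stood at 626 to 1126 in KO, 346 to 109.5 in WT and 1605 to 1041 in KI cells. Edn1, endothelin 1, rose from 187 to 654 in KO, with 396 to 459 in WT and 332 to 435 in KI cells. Nadk, Kdr and Aanat had log2 responses of 1.80, 2.59 and 0.95 in KO, of 0.36, 0.54 and -0.62 in WT and of -0.89, 1.32 and -1.05 in KI cells. Ptpn22, a phosphatase of immune cells, read 749 to 484 in KO and fell from 972 to 199 in WT and, in KI cells, from 872 to 225.

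The 12 genes ranked first among those whose KO response lay below both others were Arg1, Tk1, Hmgb2, Cxcl2, Marco, Cks1b, Birc5, Nt5dc2, Pclaf, Kif22, Ogt and Mad2l1. For Cxcl2 and Marco this was a smaller rise or none, and the other 10 fell in KO by more than any fall they showed in WT or KI cells. The falls of Hmgb2 in WT and KI cells (log2 responses of -0.38 and -0.51) and of Birc5 in KI cells (-0.59) ended at the floor. They are lower bounds, since an untreated signal near the floor leaves little room to fall. The untreated Arg1 signal in KI cells was also near the floor, which limited how far it could fall there. Ogt, which adds O-linked N-acetylglucosamine to proteins, fell from 756 to 217 in KO and read 387 to 363 in WT and 343 to 392 in KI cells. Nt5dc2 fell from 985 to 121 in KO and read 547 to 309 in WT and 325 to 136 in KI cells.

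**Figure D5:**
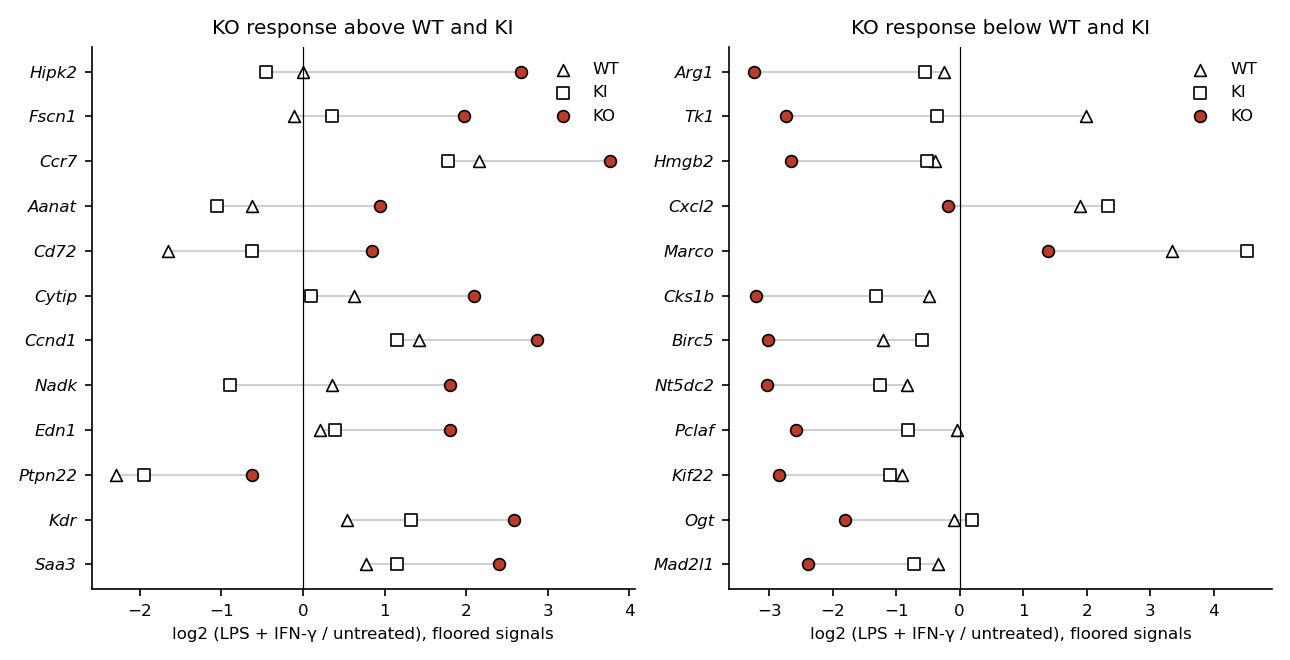
log2 response to LPS with interferon-γ in WT (triangles), KI (squares) and NF-IL6 KO cells (red circles) for the 12 genes ranked first whose KO response is above (left) or below (right) both others by at least 1 and whose highest signal reached 531.8. Arg1 stands at -3.24 in KO, -0.25 in WT and -0.55 in KI cells, and Hipk2 at 2.67 in KO.

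The difference between the KO response and the mean of the WT and KI responses was tested with limma over all 6 arrays, in which the WT to KI difference supplied the only residual degree of freedom. At a Benjamini-Hochberg adjusted p of 0.05, 0 of 9344 probe sets were called (0.0%), and at an unadjusted p under 0.05 there were 71 higher and 116 lower in KO. Without the filter on low signals, 39 were called higher and 79 lower. The 5 lowest p belonged to Mki67, Racgap1, Arg1, Nusap1 and Plagl1, each with a limma adjusted p of 0.9998. For Arg1, whose untreated KI signal left little room to fall, the difference was -2.84 (SE 0.34). For Racgap1, a regulator of cytokinesis, it was -1.86 (SE 0.21). The Mki67 probe set that gave the lowest p differed by -2.21 (SE 0.23), Nusap1, a spindle protein, by -2.40 (SE 0.29) and Plagl1 by 1.96 (SE 0.25). Of the 187 probe sets under the unadjusted threshold, 40 had WT and KI responses that were both 0 at the floor, which includes Mki67 and Racgap1.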

How the data were processed

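Each of the 6 arrays, 1 per genotype and state, was hybridised with RNA of 1 sample. The deposited values are linear signal intensities, and the submitters' processing notes name MAS5 as the authors' tool. Other steps by the authors were not given in the sources used here. Each array was rescaled to the mean of the 6 trimmed means (2% cut at each end), signals under the 40th percentile of all scaled signals (98.0) were raised to it, and log2 was taken. The 9344 probe sets above that floor on at least 1 array were kept, after leaving out 66 controls. Of 12422 probe sets, 10833 had 1 gene symbol, 396 several and 1193 none in the platform annotation, and a gene was read from its brightest probe set with 1 symbol.

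The interaction of KO with stimulation was tested with limma 3.58.1 in R 4.3.3 over all 6 arrays (intensity trend, Benjamini-Hochberg adjustment), with 1 residual degree of freedom; the code was tested on simulated data. The error behind its p-values is the difference between the WT and KI responses, combined with the trend over all probe sets. It is not the spread between animals or cultures. No other comparison has a test, because each group has 1 array, and the number of arrays limits the precision.

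Genes are named by a rule: the 25 largest rises and falls among genes above the floor on both KO arrays whose higher KO signal reached the 75th percentile of all signals (531.8), the 15 brightest that crossed the floor in each direction, the 12 in each direction whose KO response differed most from both others, the 5 lowest interaction p and up to 10 members of each list. Members outside it were named for their role after their values were seen. The members and the 50 gene lists and 13 marker lists were chosen with earlier results of these data known. Alternatives changed the floor, pseudocount, normalization, filter, probe sets of a gene and variance model.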

Additional observations from a re-analysis of the deposited data

Results flagged for a closer look

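In 4 genes whose highest signal reached 531.8, the response passed 2-fold downward in KO cells and 2-fold upward in WT or KI cells. Over all genes, 20 moved past 2-fold in opposite directions in KO and in WT or KI. Tk1, thymidine kinase, had a log2 response of -2.73 in KO, 2.0 in WT and -0.35 in KI cells. Csf2rb, the shared receptor chain of GM-CSF, had -1.13, 1.2 and 0.07. Ifnar2, a chain of the type I interferon receptor, had -1.12 in KO, 0.28 in WT and 1.23 in KI cells, and Il6ra, the interleukin 6 receptor, -1.0, 1.40 and -1.43. Another probe set of Ifnar2 had a log2 response of -0.50 in KO, short of 2-fold. The difference of KO from WT or from KI alone was not tested, and none of the 4 was called by limma against the mean of both. Each value rests on 1 array a side. The KO responses of Csf2rb, Ifnar2 and Il6ra lay close to the 2-fold threshold. With median centring, falls in KO went from 4 to 2 in the cytokine receptor list, which holds Csf2rb and Il6ra. They went from 2 to 1 in the list of interferon receptors and JAK-STAT, which holds Ifnar2.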

How the results depend on the processing

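The number of probe sets past 2-fold moved most with the floor. With the floor at the 20th percentile of all signals, 1076 rose and 1516 fell, against 611 and 905, and at the 60th percentile 508 fell. The other settings (a pseudocount of 50, quantile normalization, median centring, no filter, a filter on the KO arrays) and the 60th percentile for rises kept the counts within 1.5 times. Under median centring the share of rises among all moved probe sets was 53.7%, against 40.3%. The interaction test called 39 higher and 79 lower with no filter on low signals and 2 lower with a pseudocount, against 0 under the others run. The cause was not tested. Over 768 values of 96 named genes, none of the genes that passed 2-fold in KO changed direction. Named genes with smaller KO responses, such as Cxcl2 (-0.18) and Ptpn22 (-0.63), were not counted for direction. Of the 768 values, 95 moved beyond the spread between probe sets of a gene, 57 of them with the floor at the 60th percentile. Actb, read as the median over its probe sets, turned to -0.095. KO minus WT alone and KO minus KI alone leave no residual degree of freedom and gave values with no test. No replicate could be left out, since each group has 1 array. No paired analysis was possible because the labels number no replicates within the groups.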

Other observations

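Among genes with several probe sets above the floor on both KO arrays, Ctdsp2 had probe sets that responded by 1.48 and -1.36 on the log2 scale in KO cells.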
